A study of Mus musculus with 2084 samples.

Results

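The striatal cells described here carried GLAST (encoded by Slc1a3), a glutamate transporter on the surface of astrocytes, and were taken 2 d after an ischemic injury of the forebrain. They were chosen by their names and labels alone: sorted from the striatum in the GLAST gate, TiCY genotype, replicate letter pI. They number 122 of the 1981 labelled cells in the main RNA count matrix, and a further 34 cells with the same labels are not in that matrix. The comparison group was 131 cells of the same gate from uninjured (naive) TiCY mice, letter pM. TiCY mice were given tamoxifen at 2 months of age, which turns on a yellow fluorescent protein through Cre in cells that express Tlx (Nr2e1). For the injury both carotid arteries were occluded 2 weeks later, and brains were taken after 2 d or 21 d. Naive TiCY cells had no occlusion. Cells of individual or pooled mice, depending on the plate, were stained with antibodies that included GLAST, the oligodendrocyte marker O4, CD45 of immune cells and Ter119 of red cells, and their RNA was read by Smart-seq3 as part of a combined RNA and DNA assay. Further groups of the same gate were 79 TiCY cells at 21 d (letter pH) and a pair from 1 letter, pJ, that lack interferon receptors: 35 naive cells labelled IFN(A/G)R KO and 114 cells at 2 d labelled TiCY-IFN(A/G)R KO. Values of TiCY GLAST cells from the neighbouring ventricular-subventricular zone (vSVZ), 188 naive (pM) and 176 at 2 d (pI), are given beside some results.

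Astrocytes clear glutamate and potassium from around synapses, are joined by gap junctions, and supply neurons with glutamine, serine and lipids. After injury they become reactive: they build up intermediate filaments such as GFAP and vimentin, change their matrix and secreted proteins, and respond to cytokines of the interleukin-6 family through the receptor gp130 and the transcription factor STAT3. In the striatum some astrocytes can also start a neurogenic program after stroke.

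Each arm of the TiCY comparison is 1 letter, so ischemia cannot be told apart from the mice, the plate or the depth of that letter, and no test between pI and pM is possible. The 2 d cells held a median of 404706 counts (85316 to 813054) and the naive cells 142356 (7253 to 231648). Every cell was therefore thinned at random to 50000 counts, which kept all 122 cells at 2 d and 106 of 131 naive cells, with a median of 4839.5 and 4692.5 genes per cell. A gene's detection share is the percentage of thinned cells with at least 1 count of it, and it was called different where the shares lay 20 percentage points or more apart, a rule of size and not a test. Intervals in square brackets are exact 95% binomial (Clopper-Pearson) intervals, which cover counting error only. Of 11513 genes with a mean share of 10% or more, 1645 (14.3%) had a higher and 1451 (12.6%) a lower share at 2 d. Mitochondrial genes took a median of 0.197% of counts at 2 d and 0.158% in naive cells, and the nuclear RNA Malat1 had a median of 1697 CPM (counts per 1000000 counts of the cell) at 2 d against 11005 in naive cells.

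The GLAST label held in most but not all cells. Among 18 astrocyte identity genes, naive cells had between 9 and 18 detected (median 18), and 2 d cells between 0 and 18 (median 14.5). At least 9 of them were found in 106 of 106 naive cells and in 111 of 122 cells at 2 d. In 5 of the 2 d cells no more than 2 astrocyte genes were found, and all 5 had 10 or more of 12 neuroblast genes. The authors' labels call 109 of the 2 d cells astrocytes and NSC lineage cells, 7 reactive astrocytes and 6 neurogenic striatal astrocytes. Naive cells are all labelled striatal astrocytes.

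Genes that were rare in naive cells and present in most 2 d cells led the comparison. Osmr, the receptor subunit for oncostatin M (chr15:6813577-6874969 on GRCm38, minus strand), was detected in 66.4% [57.3 to 74.7] of 2 d cells and 3.77% [1.04 to 9.38] of naive cells. Its level ran from 0 over a median of 143 to 5077 CPM at 2 d, and from 0 over a median of 0 to 195 CPM in naive cells, so the lowest 2 d cells overlapped the naive ones. Tnfrsf12a, the receptor for the cytokine TWEAK (chr17:23675445-23677468), was found in 60.7% against 0.943% of cells, with a highest level of 4372 CPM at 2 d and 13.6 in naive cells. Both receptors were thus close to absent from the naive astrocytes. Akap12, a scaffold for protein kinase A (chr10:4266380-4359470), stood at 69.7% against 4.72%, and Ahnak, a giant scaffold protein under the membrane, at 73.0% against 12.3%. Tln2, a talin that ties integrins to actin, stood at 87.7% against 25.5%.

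The other genes among the 12 with the largest gain in share had varied roles. Cdh18, a cadherin (chr15:22549022-23474418), had the largest difference, 74.6% against 3.77%. Apobec1, the cytidine deaminase that edits apolipoprotein B mRNA, stood at 73.8% against 6.60%, and Car12, a carbonic anhydrase of the cell surface, at 65.6% against 0 of 106 naive cells, whose exact interval reaches up to 3.42%, as for every gene found in 0 naive cells here. Cpm, the membrane carboxypeptidase M, was at 61.5% against 1.89%, Brca1, a DNA repair gene, at 75.4% against 16.04%, Btbd19 at 64.8% against 1.89% and Fam186a at 79.5% against 19.8%. Single cells held large parts of some sums: 43.8% of all Brca1 counts and 25.9% of Fam186a counts at 2 d came from 1 cell, which a share does not weigh. Cdh18, Tln2 and Fam186a overlap another annotated gene on their own strand, and their counts could include its reads.

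The 12 genes with the largest loss in share were found in most naive astrocytes and few 2 d cells. Apln, which encodes the peptide hormone apelin (chrX:48025146-48034853), was detected in 12.3% [7.05 to 19.5] of 2 d and 88.7% [81.1 to 94.0] of naive cells. Its level ran from 0 over a median of 158 to 1279 CPM in naive cells and from 0 over a median of 0 to 242 CPM at 2 d. Hapln1, the link protein that fixes proteoglycans to hyaluronan (chr13:89539796-89611652), was at 13.9% against 88.7%, and Omg, the oligodendrocyte myelin glycoprotein, at 6.56% against 71.7%. The losses therefore reached secreted and matrix genes. Kirrel2, an adhesion protein of the nephrin family, was at 17.2% against 89.6%, and Arhgap5, a GTPase-activating protein, at 19.7% against 90.6%. Fut9, the fucosyltransferase that makes the Lewis X epitope (chr4:25609332-25800244), was at 20.5% against 84.9%. Enzymes with lower shares were Smpdl3a (22.1% against 90.6%), Nat8f1 (25.4% against 90.6%) and the cytochrome P450 gene Cyp4f15 (34.4% against 96.2%). Rmst, a long noncoding RNA, was at 36.9% against 99.1%, Btbd17 at 35.2% against 98.1%, and Sycp2, a gene of the synaptonemal complex, at 9.84% against 71.7%. Rmst overlaps other annotated genes on its strand.

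**Figure D1:**
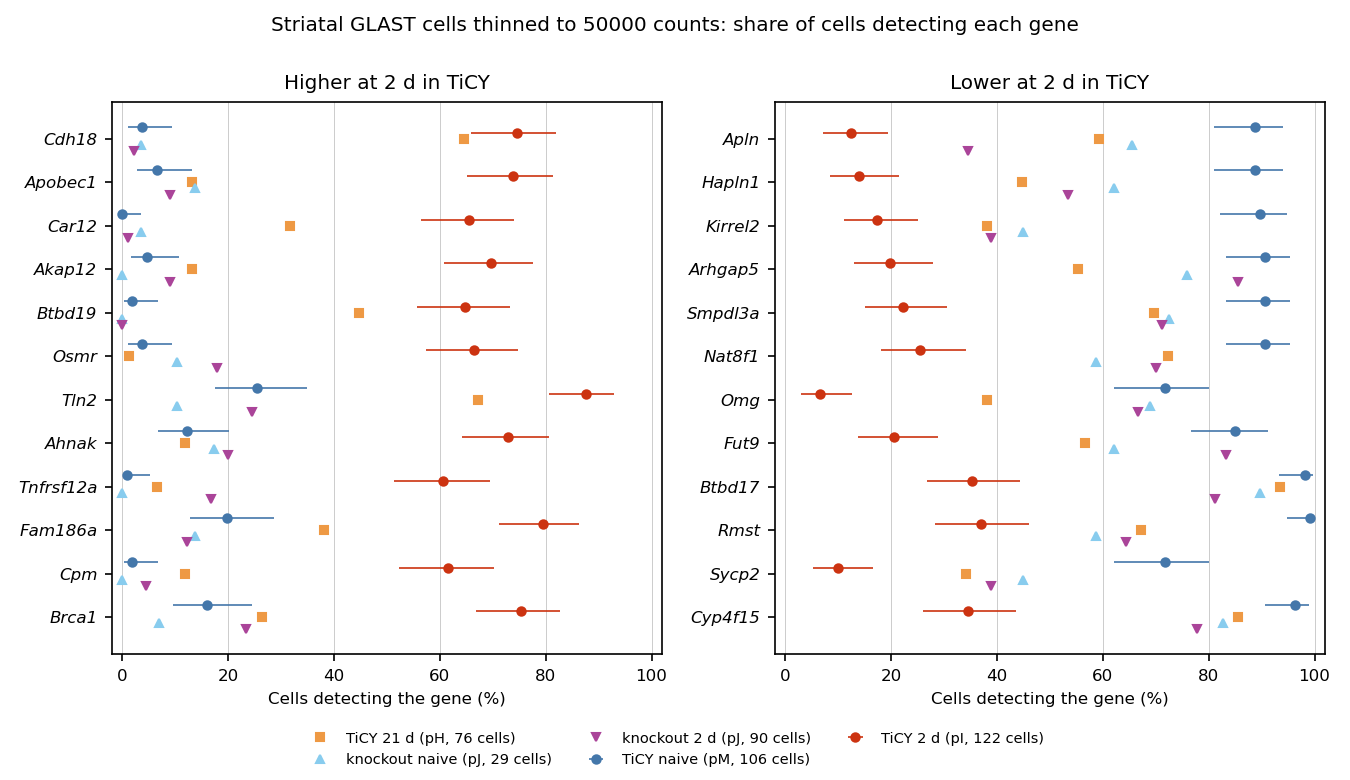
Share of cells detecting each of the 12 genes with the largest gain (left) and the 12 with the largest loss (right), in percent of cells thinned to 50000 counts. Red and blue points are TiCY cells at 2 d and naive with exact 95% intervals, squares are TiCY cells at 21 d and triangles the knockout pair. The red and blue intervals of no gene touch, which follows from the choice of these genes by that difference and is no further support. The knockout triangles at 2 d lie far from the red points for all 12 genes on the left.

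Reactive astrocyte genes were higher at 2 d almost without exception among those that passed the filter on rare genes. Of 13 genes of the pan-reactive list (genes raised in reactive astrocytes of several injuries), 9 reached the 10% mean share that the size rule needs, and 9 of 9 were higher (median difference 38.8 points, against 0.263 over all genes tested). A rare gene passes that filter only if it is high in 1 arm, so the count over all 13 is the fairer one: 9 higher, 0 lower, with Steap4 and Cxcl10 in 0 cells of both arms, and Lcn2 (9.84% against 0.943%) and Aspg (16.4% against 2.83%) below the filter. Gfap, the intermediate filament that defines reactive astrocytes, was detected in 69.7% [60.7 to 77.7] of 2 d and 21.7% [14.3 to 30.8] of naive cells. Gfap levels ran from 0 over a median of 417 to 21172 CPM at 2 d, and from 0 over a median of 0 to 1062 CPM in naive cells. Vim, its partner vimentin, was at 68.0% against 29.2%, the hyaluronan receptor Cd44 at 53.3% against 5.66%, the protease inhibitor Serpina3n at 49.2% against 4.72%, the small heat shock protein Hspb1 at 38.5% against 0.943%, and Timp1, an inhibitor of metalloproteinases, at 28.7% against 0.943%.

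Of the list named A2, first described after ischemia, 5 of 12 genes passed the filter and all 5 were higher. As above, a rare gene passes only if it is high in 1 arm, which holds for every list here. Over all 12 genes the median difference was 18.9 points, against 41.4 over the 5 tested. Clcf1, a cytokine of the interleukin-6 family, was in 45.1% against 1.89% of cells, Cd109 in 44.3% against 2.83%, S100a10 in 58.2% against 12.3%, Emp1, an epithelial membrane protein, in 36.9% against 0, and Sphk1, which makes sphingosine 1-phosphate, in 36.1% against 0.943%. The list named A1, first described after inflammation, was mixed: of 12 genes 6 passed the filter, 3 were higher and 0 lower. H2-T23, a class I histocompatibility gene, was at 48.4% against 3.77%, Fkbp5, a glucocorticoid-induced chaperone of the glucocorticoid receptor, at 63.9% against 33.0%, and Ggta1 at 22.95% against 2.83%, while H2-D1 was at 33.6% against 29.2% and Amigo2 at 4.10% against 11.3%. Both lists were drawn up in other studies.

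**Figure D2:**
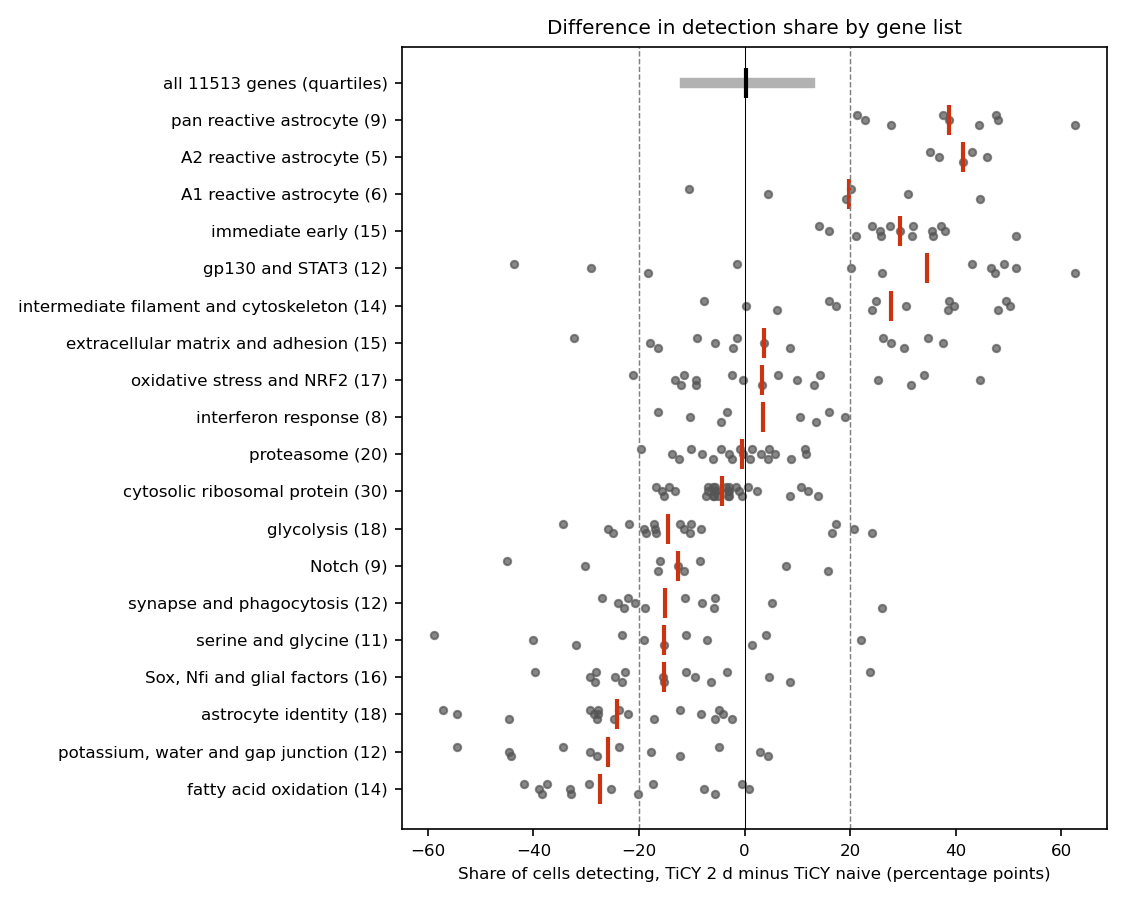
Difference in detection share between TiCY 2 d and naive cells, in percentage points, for each gene that passed the 10% mean share in 19 of the gene lists (points; numbers of genes in brackets) with the list's median as a red bar. The grey bar spans the quartiles of all 11513 genes and dashed lines mark 20 points; the reactive and immediate early genes lie to the right, and most astrocyte, potassium and fatty acid oxidation genes to the left.

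The signalling chain from gp130 to STAT3 differed at most of its steps, with receptors in both directions. Among 16 genes of this list 12 passed the filter, 8 were higher and 2 lower. The median difference was 34.7 points among these 12 and 15.3 over all 16. Of the receptors, Osmr (values above), Il6ra (47.5% against 0) and the shared subunit Il6st, which encodes gp130 (66.4% against 46.2%), were higher. Lifr, the receptor subunit for leukemia inhibitory factor, was lower (42.6% against 71.7%), as was Cntfr, the receptor for ciliary neurotrophic factor (52.5% against 96.2%). Stat3 itself was at 89.3% [82.5 to 94.2] against 63.2% [53.3 to 72.4], with a median of 391 CPM (0 to 1937) against 36.6 CPM (0 to 732). Targets and feedback genes were higher too: Socs3, which inhibits the receptor, was in 49.2% against 0 of 106 cells, and the transcription factor Cebpd in 59.8% against 13.2%. Jak1 was at 64.8% against 83.0% and Jak2 at 28.7% against 30.2%. Ligands differed among themselves. Transcripts of Lif (2.46% against 1.89%) and Cntf (0 against 0) were hardly found in these cells, while Clcf1, a ligand also on this list, was higher (values above).

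Immediate early genes, which are transcribed within minutes of a stimulus, were higher in 13 of the 15 that passed the filter (of 18). The median difference was 29.5 points among these 15 and 26.7 over all 18. Junb was in 59.0% against 7.55% of cells, Egr1 in 41.8% against 3.77%, Nr4a1 in 38.5% against 2.83%, Klf6 in 59.0% against 21.7% and Fos in 40.2% against 8.49%. Atf3, a stress factor that pairs with Jun proteins, was in 29.5% against 0. Jun, already frequent in naive cells, was at 63.1% against 47.2% and Dusp1 at 32.0% against 17.9%, both under the size rule. All 15 lay higher or under the size rule, and none lower.

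Promoters of 4 genes are shown, chosen because they hold a motif of AP-1, which is formed by Fos and Jun proteins, or of STAT factors. Fos, Junb and Stat3 had higher shares at 2 d, while Jun lay under the size rule. Whether these factors act on the genes shown was not tested. Of each promoter the 250 bases before the start site are given (RefSeq, GRCm38.p6), 5′ to 3′ on the gene's strand, with the AP-1 motif TGANTCA and the STAT motif TTCNNNGAA, searched on both strands, in capitals. Emp1 (chr6:135362681-135362930, plus strand) holds 2 of each, the last pair overlapping; Sphk1 (chr11:116531587-116531836, plus strand, the first of its promoters in the table) holds 1 of each; Socs3 (chr11:117969367-117969616, minus strand) holds 1 STAT motif; and Gja1 (chr10:56377050-56377299, plus strand), a gene with a lower share at 2 d, holds 1 AP-1 motif.
Emp1: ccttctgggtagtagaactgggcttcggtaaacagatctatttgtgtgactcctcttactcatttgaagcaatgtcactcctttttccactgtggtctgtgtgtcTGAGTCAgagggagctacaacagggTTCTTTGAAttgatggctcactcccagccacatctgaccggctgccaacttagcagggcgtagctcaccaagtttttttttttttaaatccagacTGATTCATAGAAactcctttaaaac
Sphk1: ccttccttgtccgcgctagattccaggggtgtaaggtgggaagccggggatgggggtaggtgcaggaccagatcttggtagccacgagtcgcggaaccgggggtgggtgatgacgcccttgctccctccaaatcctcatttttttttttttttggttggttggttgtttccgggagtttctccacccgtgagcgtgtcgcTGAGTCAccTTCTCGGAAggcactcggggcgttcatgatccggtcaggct
Socs3: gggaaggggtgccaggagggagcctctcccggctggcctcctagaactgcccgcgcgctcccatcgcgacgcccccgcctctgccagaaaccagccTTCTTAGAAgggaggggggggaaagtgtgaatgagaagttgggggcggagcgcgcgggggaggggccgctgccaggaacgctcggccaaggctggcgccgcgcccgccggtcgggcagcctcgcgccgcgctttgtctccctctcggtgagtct
Gja1: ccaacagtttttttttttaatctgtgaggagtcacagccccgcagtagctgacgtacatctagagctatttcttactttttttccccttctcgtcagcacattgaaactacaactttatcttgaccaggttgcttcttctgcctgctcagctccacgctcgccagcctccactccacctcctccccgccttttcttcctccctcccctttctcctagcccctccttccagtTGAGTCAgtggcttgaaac
Such matches are common: of the 27025 genes with a promoter there, 7.819% held the AP-1 motif and 8.13% the STAT motif in at least 1 promoter (6.749% and 7.02% of the 32851 promoters). Among genes with a higher share and a promoter there (1136 genes), 6.602% held the AP-1 motif in at least 1 promoter, against 5.244% of the 1106 genes with a lower share and 5.131% of the 8536 genes tested that matched. For the STAT motif the shares were 7.746%, 7.052% and 7.006%. Both shares of the genes higher at 2 d lie below those of the whole table and above those of the genes tested, with no test of either. Of 16 immediate early genes matched 0 held the AP-1 motif and 1 the STAT motif. Of 13 pan-reactive genes 2 held the AP-1 and 1 the STAT motif, of 14 gp130 and STAT3 genes 2 and 1, and of 8 A2 genes 2 and 3. Among the astrocyte identity genes, a list lower at 2 d, 2 of 13 held the AP-1 and 4 the STAT motif. These are descriptions of letters in a short window and not of binding.

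Of 16 genes of the filament and cytoskeleton list 14 passed the filter, 9 were higher, Gfap and Vim included, and 0 lower. The median difference was 27.8 points among these 14 and 24.5 over all 16. Anxa2, a membrane-binding partner of S100a10, was in 59.8% against 9.43% of cells, the tubulin Tuba1c in 59.0% against 9.43%, the tubulin Tubb6 in 43.4% against 3.77%, and nestin (Nes), a filament of progenitors and reactive astrocytes, in 38.5% against 0 of 106. Synm (10.7% against 8.49%) and Lgals1 (41.0% against 34.9%) differed little.

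Matrix and adhesion genes split. Of 20, 15 passed the filter, 6 were higher and 1 lower. Tnc (tenascin C, a matrix protein of developing and injured tissue) was at 44.3% against 6.60%, the matrix protease Adamts1 at 45.1% against 10.4%, and the integrin Itgb1 at 68.9% against 38.7%. The metalloproteinase inhibitor Timp3 was lower (58.2% against 90.6%). The abundant genes Ncan, Bcan and Sparcl1 stayed detected in 83.6% to 93.4% of 2 d cells, but their median levels were 2-fold or more lower, as were those of 53.8% of all abundant genes (described below). Sparcl1 had a median of 289.5 CPM at 2 d against 4412 CPM, and with ratios centred on the median of abundant genes 2 of the 3 remained past 2-fold.

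Oxidative stress genes named for their control by NRF2 were higher in 4 and lower in 1 of 17. Beside this, 14.3% of all genes tested were higher and 12.6% lower. Hmox1, heme oxygenase 1, was at 47.5% against 2.83%, the thioredoxin reductase Txnrd1 at 55.7% against 21.7%, Srxn1 at 46.7% against 15.1%, and the peroxidase Gpx1 at 69.7% against 44.3%. Prdx1 was at 77.0% against 98.1%. Metallothioneins, which bind zinc and copper, did not all differ alike: Mt2 (chr8:94172664-94173568) had a median of 1167 CPM (0 to 15659) against 131 CPM (0 to 525), and Mt1 of 3384 CPM against 1026 CPM, while Mt3 had 624 CPM against 1042 CPM, under the size rule.

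Genes that define astrocytes were lower at 2 d. Detection saturates for abundant genes, so for the 589 genes with a mean share of 80% or more the median CPM over all cells was compared, with 2-fold as the size rule. Here 317 (53.8%) were lower and 41 (6.96%) higher, and the median of all 589 log2 ratios was -1.09, so lower medians were the rule for abundant genes. By share 11 of the 18 astrocyte identity genes were lower and 0 higher (median difference -24.2 points), and by median level 14 of the 15 abundant ones were lower; with all ratios centred on that median of -1.09, 10 of 15 remained past 2-fold. Slc1a2, the main glutamate transporter, had a median of 2150.2 CPM (0 to 18053) at 2 d and 22611 CPM (3243 to 38433) in naive cells. Its 2 d range covered much of the naive range, although the median lay below the lowest naive cell. Gja1, which encodes the gap junction protein connexin 43 (chr10:56377330-56402513, its promoter shown above), had a median of 86.2 CPM (0 to 1939) against 2213 CPM (481 to 7679), a log2 ratio of -4.68. Aldoc, an aldolase of astrocytes, had 339.8 CPM (0 to 20567) against 3143 CPM (823 to 15546). By share, Cldn10 (41.0% against 98.1%), the connexin 30 gene Gjb6 (41.8% against 96.2%) and the water channel Aqp4 (52.5% against 97.2%) differed most.

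**Figure D3:**
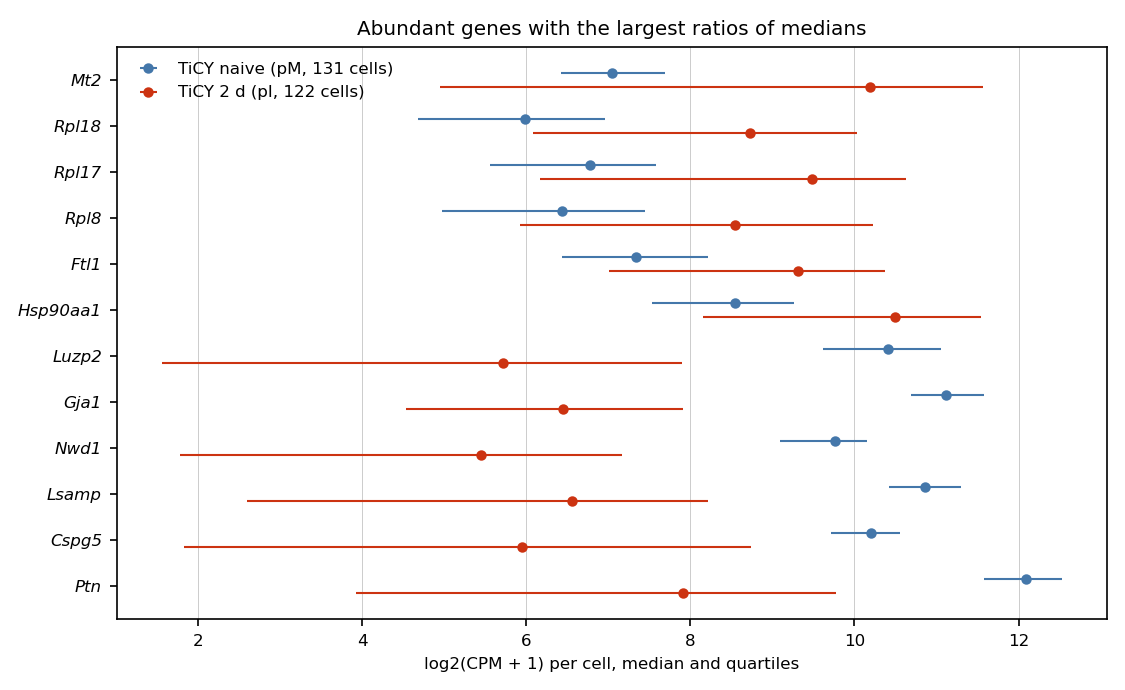
Median level per cell with quartiles, as log2(CPM + 1), for the 6 abundant genes with the largest gain and the 6 with the largest loss in median, in TiCY cells at 2 d (red) and naive (blue). Quartile ranges overlap for each of the 6 higher genes, and those of the 6 lower genes do not touch. These genes were chosen by their ratio of medians, so such gaps are no further support.

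The abundant genes with the largest losses in median were Luzp2 (51.5 against 1356 CPM), Gja1, Nwd1 (42.5 against 867), the adhesion protein Lsamp (93.1 against 1860.4), the proteoglycan Cspg5 (60.7 against 1180, a log2 ratio of -4.28) and the growth factor pleiotrophin, Ptn (239 against 4341). Of all Nwd1 counts at 2 d 55.7% came from 1 cell, while its median was not led by it. The largest gains were Mt2 and genes of protein synthesis, iron storage and folding: the ribosomal proteins Rpl18 (422 against 62.4 CPM), Rpl17 (715 against 109) and Rpl8 (371 against 85.7), ferritin light chain Ftl1 (635 against 161) and the chaperone Hsp90aa1 (1439 against 374). Of 30 ribosomal protein genes 0 differed by share, while 9 of the 13 abundant ones were 2-fold or more higher by median and 0 lower. Ribosomal protein genes have many processed copies in the genome, and how such reads were assigned is not given in the sources used here.

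Potassium, water and gap junction genes followed the astrocyte list, with which they share members: 7 of 12 were lower and 0 higher by share. The potassium channels Kcnk1 (55.7% against 100%) and Kcnj10 (52.5% against 86.8%) were among them, and Hepacam, an adhesion protein of astrocyte endfeet, was at 72.1% against 100%. In the serine and glycine list 4 of 11 were lower, led by Slc7a10, which carries serine (39.3% against 98.1%), and the GABA transporter Slc6a11 (59.8% against 100%), and 1 was higher, Shmt1 (34.4% against 12.3%). Of 8 glutamate and glutamine genes tested 2 were lower by share, among them the metabotropic receptor Grm3 (56.6% against 98.1%), and all 5 abundant ones by median, glutamine synthetase (Glul) among them. Over all genes 12.6% of those tested were lower by share and 53.8% of the abundant ones by median. With ratios centred on the median of abundant genes 4 of the 5 remained past 2-fold.

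Fatty acid oxidation genes were lower in 9 of 14 and higher in 0 (median difference -27.3 points). Cpt1a, which admits long-chain fatty acids to mitochondria, was at 33.6% against 75.5%, the thiolase Acaa2 at 33.6% against 72.6%, the acyl-CoA synthetase Acsl6 at 60.7% against 99.1%, and Acadl, a dehydrogenase of the pathway, at 48.4% against 85.8%. Glycolysis genes were mixed, 4 of 18 lower and 2 higher: the hexokinase Hk2 (27.0% against 2.83%) and Pfkfb3 (44.3% against 23.6%) were higher, and Pfkl (22.1% against 56.6%) lower. Of all genes tested 12.6% were lower and 14.3% higher, so the glycolysis counts are not far from those shares. Of 14 genes of the hypoxia list 9 passed the filter, 0 were higher and 4 lower, among them Vegfa (56.6% against 99.1%) and P4ha1, a collagen hydroxylase (20.5% against 74.5%).

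Some transcription factors of the astrocyte lineage were detected in fewer cells. In the Sox, Nfi and glial factor list 7 of 16 were lower and 1 higher (4 lower and 1 higher without cells that carry markers of other types), with Sox2 at 62.3% against 90.6%, Id4 at 57.4% against 97.2%, Sox9 at 75.4% against 98.1% and Lhx2 at 36.9% against 65.1%. Id1 was higher (48.4% against 24.5%). The Notch target Hes5 was at 23.8% against 68.9%. Among phagocytosis and synapse genes 5 of 12 were lower and 1 higher, with Megf10, an engulfment receptor, at 43.4% against 64.2%, Gas6, a ligand of the engulfment receptor Mertk, at 27.9% against 51.9%, and the glypican Gpc4 at 33.6% against 7.55%.

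With all cells used, no interferon gene tested passed the size rule. Of 24 response genes 8 passed the filter, and 0 were higher or lower (largest difference Stat2, 48.4% against 29.2%). Of all genes tested 14.3% were higher and 12.6% lower, so a count of 0 among 8 genes is not far from those shares. Ifit3 was at 9.84% against 13.2% and Isg15 at 1.64% against 3.77%. The receptor genes Ifnar1 (34.4% against 36.8%), Ifnar2 (27.9% against 23.6%), Ifngr1 (27.9% against 29.2%) and Ifngr2 (34.4% against 32.1%) were close in both arms. With cells that carry markers of other types left out (below), 4 of 10 response genes were higher.

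Of 20 cell cycle genes 8 passed the filter, 2 were higher and 0 lower, beside 14.3% higher and 12.6% lower over all genes tested. The G1 cyclin Ccnd1 was at 34.4% against 7.55% and Tyms, which makes thymidylate, at 31.1% against 8.49%. Mki67, found in dividing cells, was at 1.64% [0.199 to 5.80] against 8.49% [3.96 to 15.5].

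The 2 d cells varied more than the naive ones. The number of pan-reactive genes per cell ran from 0 to 10 of 13 (median 5) at 2 d and from 0 to 3 (median 1) in naive cells, and 90 of 122 cells against 2 of 106 had 3 or more. Immediate early genes ran from 0 to 15 of 18 (median 6) against 0 to 8 (median 1). Genes of the gp130 and STAT3 list ran from 0 to 12 of 16 (median 8) against 1 to 7 (median 4). Some 2 d cells thus lay inside the naive range on each list. In the 6 cells labelled neurogenic, Gfap, Vim, Socs3 and Egfr were found in 6 of 6 and Dcx in 0 of 6. In the 7 labelled reactive, Tnfrsf12a and Apobec1 were found in 7 of 7, Gfap and Vim in 6 of 7 and Egfr in 3 of 7. Those labels may rest on these transcriptomes, so these counts are only a description, and Gfap was also found in 73 of the 109 other cells.

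**Figure D4:**
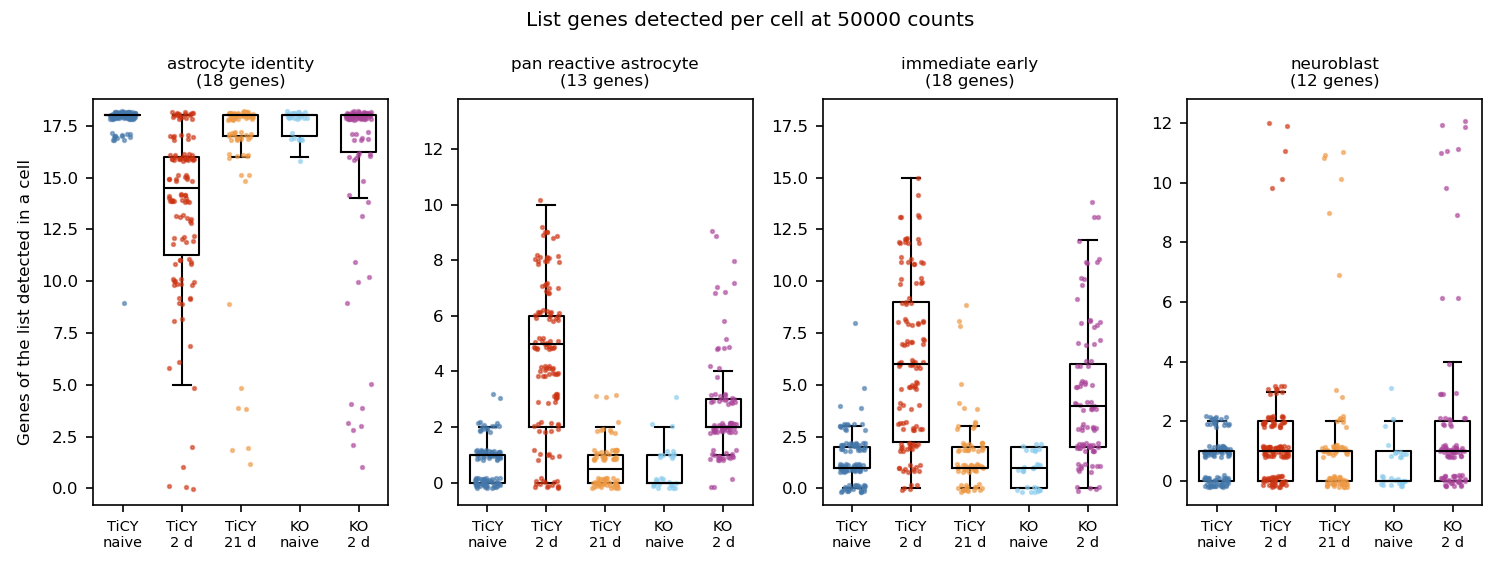
Number of genes of 4 lists detected in each striatal GLAST cell at 50000 counts (points, spread for visibility), with a box at the quartiles and a line at the median, for the 5 groups; KO is the interferon receptor knockout. Pan-reactive and immediate early counts are highest at 2 d in TiCY, astrocyte counts are lowest there, and a few cells with 9 or more neuroblast genes appear in the TiCY 2 d, TiCY 21 d and KO 2 d groups.

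Markers of other cell types differed between the arms in both directions. At least 3 markers of another type were found in 41 of 122 cells at 2 d and 3 of 106 naive cells. Endothelial genes accounted for 23 of the cells at 2 d, of which 20 had 9 or more astrocyte genes. They came from Pecam1 (49.2% of cells against 7.55%), Flt1 (34.4% against 1.89%) and Cdh5 (18.03% against 0), while the endothelial genes Cldn5, Ly6c1 and Slco1a4 were in 1, 0 and 1 of 122 cells. Other markers were lower at 2 d: the endothelial gene Tek (9.84% against 32.1%), the mural gene Pdgfrb (37.7% against 60.4%), the neuronal gene Ppp1r1b (22.1% against 56.6%) and the oligodendrocyte gene Cnp (39.3% against 59.4%). By the size rule 2 of these markers were higher (Pecam1 and Flt1) and these 4 lower; the ependymal genes Foxj1 (22.95% against 3.77%) and Ak7 (19.7% against 1.89%) lay just under it. Neuroblast genes accounted for 14 cells, neuron genes for 9, oligodendrocyte precursor genes for 4 and oligodendrocyte genes for 2. No cell of either arm had 3 or more of 12 microglia genes. At 2 d C1qa, C1qb, C1qc, Aif1, Trem2 and P2ry12 were at 0, while in naive cells P2ry12 was at 5.66% and C1qb at 0.943%. Cx3cr1 was in 20.5% of 2 d cells against 0.943%, and Tyrobp in 1.64% against 10.4%. The summed counts of the endothelial list were 0.0129% of all counts at 2 d against 0.00256% in naive cells, and of the neuroblast list 0.0558% against 0.0116%.

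With those cells left out, 1513 genes were higher and 1228 lower by share. Pan-reactive genes were higher in 10 of the 10 that passed the filter (of 13), immediate early genes in 12 of 15 (of 18), and the gp130 and STAT3 list stayed at 8 higher and 2 lower. Astrocyte identity genes were then lower in 7 of 18 with a median difference of -15.7 points in place of -24.2, potassium, water and gap junction genes in 5 of 12, Sox, Nfi and glial factors in 4 of 16, and fatty acid oxidation genes in 8 of 14. The losses on these lists were smaller without those cells, while the gains stayed near their size. Over all 13 pan-reactive genes the median difference was 28.7 points in place of 27.7. Over all 18 immediate early genes it was 26.5 points in place of 26.7. Among the genes that passed the filter it was 41.1 points for the pan-reactive and 28.8 points for the immediate early list. The part of those cells in the lower astrocyte shares was not tested further.

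The values at 21 d and in the vSVZ stand beside these, with no count of shared genes, because the 21 d cells are set against the same naive cells. Pan-reactive genes at 21 d had a median of 0.5 per cell (0 to 3 of 13), near the naive value of 1, and astrocyte genes a median of 18 (1 to 18). Osmr was in 1.32% of 21 d cells, Gfap in 19.7%, Socs3 in 1.32%, Cd44 in 2.63% and Junb in 7.89%. Other genes were still found in more cells at 21 d than in naive ones: Cdh18 was in 64.5% of 21 d cells, Tln2 in 67.1% and Btbd19 in 44.7%. Car12 was in 31.6% of 21 d cells, against 65.6% at 2 d. The 21 d cells are 1 other letter, pH, so time cannot be told apart from letter. Apln was in 59.2%, Hapln1 in 44.7% and Aqp4 in 85.5%, between the naive and the 2 d share. In the vSVZ the 2 d cells were mostly of another kind, since 105 of 152 had fewer than 9 astrocyte genes, against 16 of 177 naive cells. There Cdh18 was in 46.7% of cells at 2 d and 2.82% of naive cells, Osmr in 24.3% and 3.39%, and Gfap in 30.9% and 22.6%.

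The knockout pair of letter pJ offers cells that share nothing with pI and pM, though on another genotype, so that a difference between the pairs can be genotype, letter or depth, which cannot be told apart. Within the pair the naive cells are labelled IFN(A/G)R KO and the 2 d cells TiCY-IFN(A/G)R KO. Ischemia therefore cannot be told apart there from this difference in genotype label. Of the receptors that give these mice their label, Ifngr1 was found in 0 of 29 naive and 5.56% of 90 cells at 2 d, and Ifnar1 in 10.3% and 24.4%; whether the counted reads lie in the deleted part of either gene was not tested. Knockout cells had a median of 3431 genes per cell when naive and 5350.5 at 2 d, and 35.5% of 10697 genes were called higher at 2 d and 1.22% lower, so a higher share was common there. At 50000 counts 29 of 35 naive and 90 of 114 cells at 2 d were kept, and markers of another type were found in 4 and 22 of them. Of 1030 genes higher in the TiCY pair and tested in both, 455 were higher in the knockout pair, which is 44.2% of the TiCY list and 12.3% of the knockout list of 3711, against 36.8% of all genes tested in both. Of 1433 genes lower in the TiCY pair, 78 were lower in the knockout pair, 5.44% of the TiCY list and 62.9% of the knockout list of 124, against 1.23% of genes tested in both. The opposite call, higher in the knockout pair, was made for 297 of the 1433.

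List counts in the knockout pair are over all genes of a list, with no filter. Of 18 immediate early genes 9 were higher there, of 16 gp130 and STAT3 genes 6 and of 16 filament and cytoskeleton genes 5. Of 13 pan-reactive genes 3 were higher and of 12 genes of the A2 list 1. On the same basis, with no filter, 3799 of all 35606 genes were higher there. Among the genes that passed the filter in that pair the share was 35.5%, which is not the basis of these list counts. Single genes of these lists, Gfap and Vim among them, differed widely in the knockout pair. Gfap was in 81.1% of knockout cells at 2 d against 24.1% of naive ones, Vim in 70.0% against 0, Stat3 in 82.2% against 44.8%, Junb in 34.4% against 3.45%, Fos in 42.2% against 6.90%, Nes in 24.4% against 0 and Serpina3n in 26.7% against 3.45%. Osmr stood at 17.8% against 10.3%, Socs3 at 18.9% against 3.45% and Cd44 at 23.3% against 6.90%, all in fewer cells than in TiCY at 2 d. Of the 12 genes with the largest gain in TiCY none differed by 20 points in the knockout pair; Cdh18 was at 2.22% against 3.45%, Apobec1 at 8.89% against 13.8%, Car12 at 1.11% against 3.45%, Btbd19 at 0 against 0 and Tnfrsf12a at 16.7% against 0. Of the 12 with the largest loss only Apln differed by 20 points downward (34.4% against 65.5%), and Fut9 was higher (83.3% against 62.1%). Astrocyte identity genes had a median difference of -10.0 points in the knockout pair, fatty acid oxidation genes 11.99 and ribosomal protein genes 25.9, beside 12.95 points over all genes tested in TiCY. For the pan-reactive genes tested in TiCY it was 8.89 points and for those of the A2 list 10, both under that of all genes.

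**Figure D5:**
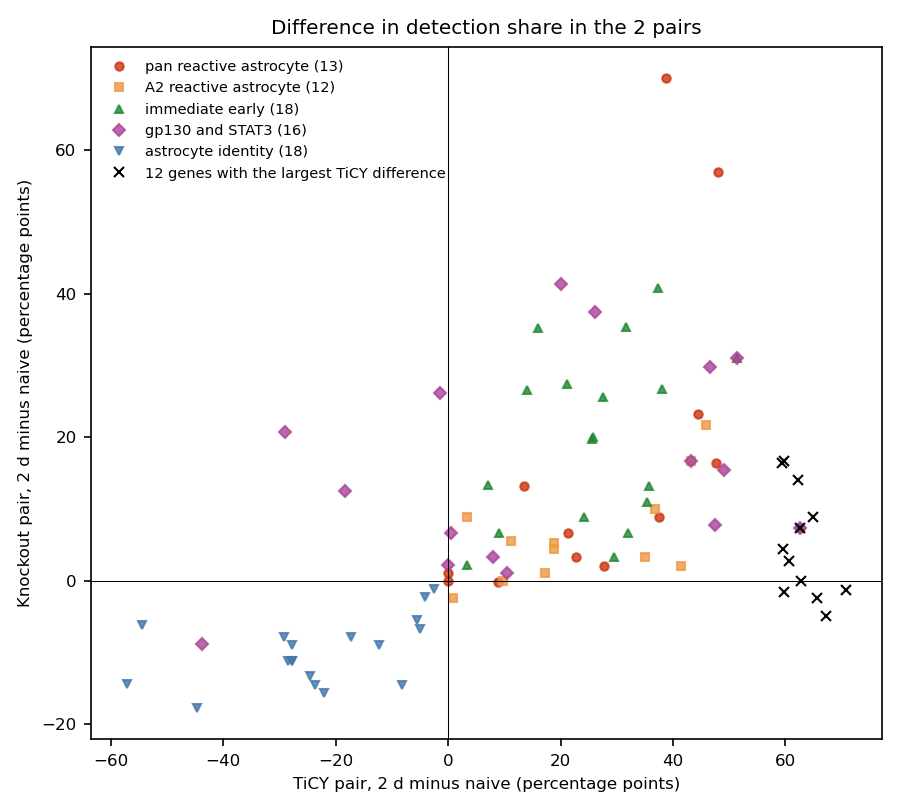
Difference in detection share between 2 d and naive cells in the TiCY pair (horizontal) and in the knockout pair (vertical), in percentage points, for the genes of 5 lists and, as crosses, the 12 genes with the largest gain in TiCY. Astrocyte genes lie lower left, Gfap and Vim highest in the upper right, and the crosses lie far right, at 16.7 points or less on the vertical axis.

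The only test that bears on 2 d against naive in this gate joins the genotypes. Counts were summed over the cells of each of the 5 striatal groups and fitted in edgeR with terms for knockout and time, which leaves 1 residual degree of freedom, so that the spread behind each p-value came from the trend over genes and p-values measure only the spread between such sums. The knockout term treats the naive and the 2 d knockout cells as 1 genotype, although only the latter are labelled TiCY. Of 22409 genes 449 rose at 2 d (2%) and 66 fell (0.295%) in edgeR's quasi-likelihood test with Benjamini-Hochberg adjustment at 0.05. Calls by share and by median came from TiCY cells that also enter these sums, so their overlap with this fit is not independent support. Of the 12 genes with the largest gain in share 9 rose, all but Apobec1, Tln2 and Cpm, and of the 12 with the largest loss Apln, Hapln1 and Sycp2 fell. Of the 12 abundant genes named by their medians 0 passed. Of the 449 genes that rose, 147 had 50% or more of their 2 d TiCY counts in 1 cell and 245 were also higher by share. Of the 66 that fell, 1 had such a cell and 54 were also lower by share.

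Counts of reactive astrocyte genes that rose in this fit differed by list: 9 of 11 pan-reactive genes tested (Aspg, Cd44, Gfap, Hspb1, Osmr, S1pr3, Serpina3n, Timp1 and Vim), 7 of 12 of the A2 list and 1 of 12 of the A1 list (Fkbp5). The summed level of Osmr was 4.16 CPM in TiCY naive, 343 in TiCY 2 d, 0.227 in TiCY 21 d, 6.44 in knockout naive and 36.8 in knockout 2 d, a log2 fold change of 4.48 ± 0.87 (SE, edgeR adjusted p = 4.575e-05). Both 2 d sums lay above the 3 other sums. Cd44 had 4.62, 173, 3.93, 0.477 and 142 CPM in the same order (6.33 ± 0.90, edgeR adjusted p = 1.254e-09). Tnfrsf12a had 0.130, 529, 11.2, 0 and 91.0 CPM (edgeR adjusted p = 1.021e-18). Cdh18 also passed (0.520, 345, 57.9, 0.716 and 1.97 CPM, edgeR adjusted p = 2.326e-05), although its knockout sum at 2 d was close to the naive one. Car12 and Btbd19 likewise passed with knockout sums at 2 d of 0.171 and 0.0857 CPM, so their calls rest on the TiCY cells.

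Of the signalling genes 6 of 16 on the gp130 and STAT3 list rose (Cebpd, Clcf1, Il6ra, Junb, Osmr and Socs3) and 11 of 17 immediate early genes. Socs3 had 0, 176, 0.529, 1.67 and 37.5 CPM (edgeR adjusted p = 2.758e-08), with both 2 d sums the highest. Egr1 had 9.56, 89.95, 38.5, 0 and 436 CPM (6.19 ± 0.99, edgeR adjusted p = 1.733e-07), higher at 2 d in the knockout than in TiCY. Emp1 was at 0 in all 3 sums other than those at 2 d (259 CPM in TiCY and 38.3 in the knockout, edgeR adjusted p = 1.535e-16). On the other lists 9 of 16 cytoskeletal genes rose, 4 of 19 matrix genes (Cd44, Lamc1, Timp1 and Tnc), 2 of 17 oxidative stress genes (Hmox1 and Srxn1) and 4 of 20 cell cycle genes (Ccnd1, Ccnd2, Cenpf and Top2a). Of the last, Ccnd2, Cenpf and Top2a no longer passed without cells that carry markers of other types.

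Fewer losses passed this test. Apln had 254, 10.4, 94.2, 177 and 43.5 CPM (-3.32 ± 0.78, edgeR adjusted p = 0.002015), and Hapln1 227, 7.66, 51.0, 247 and 69.9 CPM (-3.35 ± 0.80, edgeR adjusted p = 0.002457). The sterol synthesis enzyme gene Nsdhl (-2.54 ± 0.73, edgeR adjusted p = 0.02787), Grm3 (-2.71 ± 0.81, edgeR adjusted p = 0.04001) and Chrdl1, an astrocyte protein that matures synapses (-2.52 ± 0.71, edgeR adjusted p = 0.02211), fell. Of the 18 astrocyte identity genes 0 passed; Slc1a2 had sums of 24020, 3690, 11990, 20580 and 11930 CPM (-1.74 ± 1.14, edgeR adjusted p = 0.7162) and Gja1 2278, 244, 706, 1188 and 1032 CPM (-1.71 ± 0.88, edgeR adjusted p = 0.5194). Both genes had their lowest sum in TiCY at 2 d. Of 24 interferon response genes and 14 fatty acid oxidation genes 0 passed. Over all genes 2% rose and 0.295% fell. A count of 0 on these 2 lists, or of falls among the 18 astrocyte genes, is thus near the share over all genes.

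Neuroblast genes rose in 8 of 12, among them Dcx, which bundles microtubules in young neurons, and Sox11. Dcx had 0.0650, 20.7, 32.1, 0 and 82.1 CPM (edgeR adjusted p = 2.961e-08). Its TiCY sum at 2 d came from few cells, since it was detected in 6 of 122, and with cells that carry markers of other types left out none of the 8 genes passed. Without those cells edgeR called 257 genes higher and 37 lower, and of the genes named here Ahnak, Sycp2, Nsdhl, Grm3, Chrdl1 and Tnc no longer passed. Without the 21 d sum 314 rose and 29 fell. In limma, fitted to the mean over cells of log2(CPM + 1), 0 genes passed (2128 higher and 210 lower at an unadjusted p of 0.05 or less, against 1569 and 630 in edgeR).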

How the data were processed

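The values are raw read counts per gene and cell, as the authors deposited them, from libraries aligned with STAR and counted with featureCounts on GRCm38 (mm10), per the submitters' processing notes; for versions, annotation and filters: not given in the sources used here. This main table holds 2584 cells, of which 603 match no label given here and were not used; a second table was not used. Genes were matched by identifier, and 35455 of 35606 had a symbol; coordinates are those of GENCODE on GRCm38. The members and the gene lists were chosen with earlier results of these data known.

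Each cell is 1 sample, and the replicate is the letter, a preparation from 1 or more mice. Letter pI against pM leaves 1 replicate an arm and no test. Cells were thinned without replacement to 50000 counts for detection shares, leaving out 25 naive TiCY, 6 naive knockout and 24 knockout cells at 2 d; CPM used every cell and all its counts. The size rules were 20 points among genes of 10% mean share and 2-fold among genes of 80% mean share. Named were the 12 genes with the largest share difference and the 6 with the largest ratio of medians in each direction, passing over symbols without a proper gene name (7 higher and 3 lower), and 2 to 4 genes or more of each list; a few further list genes were named after their values were seen. Per-group sums were tested in edgeR 4.0.16 (quasi-likelihood, TMM, filterByExpr; R 4.3.3), with DESeq2 1.42.0 and limma 3.58.1 as alternatives; the sums held 4380326 to 49928400 counts. Shares were computed in Python 3.11.15 with scipy 1.17.1. Both procedures were tested on simulated data. Alternatives were other thinning depths, detection thresholds, filters, scalings and sets of cells.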

Additional observations from a re-analysis of the deposited data

Results flagged for a closer look

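Fut9 differed between the genotypes. Its share of cells was 64.4 points lower at 2 d in the TiCY striatal pair (20.5% against 84.9%), a difference of -64.4, and 21.3 points higher in the knockout pair (83.3% against 62.1%). It was chosen here because the TiCY and knockout pairs lay past 20 points in opposite directions; the difference between them was not tested, since each arm is 1 letter.

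Mt2 differed between the regions. The log2 ratio of its median CPM, 2 d over naive, was 3.15 in the TiCY striatal cells (1167 against 131 CPM) and -3.65 in the TiCY vSVZ cells (8.60 against 108 CPM). The difference was not tested either. Of the vSVZ cells at 2 d 93 of 152 had no more than 2 of the 18 astrocyte genes, against 5 of 122 in the striatum, and the part of this in the Mt2 medians was not tested.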

How the results depend on the processing

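No gene named by size reversed direction under the alternatives run. Genes higher by share numbered 1645 at 50000 counts, 1024 at 20000 counts, 5095 with no thinning and 765 where detection needed 3 counts; genes lower by share numbered 1451, and 693 with no thinning. By median, 135 genes were higher and 134 lower once ratios were centred on their median, in place of 41 and 317, and 653 and 1439 among genes of 50% mean share or more. In the knockout pair, with alternatives chosen after seeing the data, 2200 genes were higher at 20000 counts and 1693 with 3 counts, and 198 lower at 100000 counts, in place of 3799 and 131. The edgeR calls, 449 and 66, became 934 and 201 in DESeq2, 257 and 37 without cells that carry markers of other types, 0 and 0 in limma, and 29 lower without the 21 d sum. Of 76 named or listed edgeR calls 72 held in DESeq2, 76 with RLE size factors, 51 without those cells, 63 without the 21 d sum and 0 in limma; the cause was not tested. No paired analysis was possible because pI and pM share no letter and the knockout pair is 1 letter. Leaving out a 2 d or naive sum leaves no residual degrees of freedom, so it was not fitted, and cells of the second table were not run. The median depth of the knockout cells, 137876 counts naive and 98844.5 at 2 d, limits what can be detected there.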
